A study of Mus musculus with 4 samples.

Results

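The cytosolic ribosomal protein genes were taken as the rows whose symbol is Rpl or Rps followed by digits, with at most 1 trailing a, x, y or l and 1 further digit, together with Rpsa, Rplp0, Rplp1 and Rplp2. This rule took 88 of the 38921 rows of the deposited tables, 37 named for the small subunit and 51 for the large subunit. Among them, 76 were core genes (31 small, 45 large), 6 were paralogs (Rps27l, Rpl3l, Rpl7l1, Rpl10l, Rpl22l1 and Rpl39l), 5 were retrocopy rows (Rps12l1, Rps12l2, Rps3a2, Rps3a3 and Rps4y2), and 1 row named Rpl24 did not lie at the Rpl24 gene. The measurements come from poly-A RNA of mouse pancreatic fibroblasts, sequenced in 2 wild type libraries and 2 KPC libraries. In the literature KPC stands for mice with pancreatic tumours driven by engineered alleles, mutant Trp53 among them, that Cre switches on in the Pdx1 lineage, but the labels state no more than the name, with a mixed strain, no age and no alleles. All 4 cultures were kept in DMEM with 10% FBS at 37 °C and 7% CO2 after a gravity separation, with no treatment named. The labels call the replicates biological but name no animals or culture dates, so p-values reflect only how far these libraries spread.

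A ribosome is built from ribosomal RNA and a set of ribosomal proteins, divided between a small subunit, which binds the mRNA and decodes it, and a large subunit, which joins amino acids and carries the exit tunnel. Messenger RNAs of these proteins are among the most abundant of any growing cell and usually begin with a C and a run of pyrimidines, the terminal oligopyrimidine tract, through which mTOR signalling and Larp1 control their translation. Because poly-A RNA was counted, the values describe mRNA levels and not how much of each mRNA was translated. In mammalian genomes many ribosomal protein mRNAs were also copied back into DNA as retrocopies (processed pseudogenes), which share sequence with their parent genes.

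The libraries differed in depth and in marker genes of other cells. Counts summed to 53232634 and 22302141 in wild type replicates 1 and 2 and to 57926327 and 68312367 in KPC replicates 1 and 2, and all pairs of values below follow this order. Levels are CPM (counts scaled to a common library size) after TMM scaling. Wild type replicate 1 stood apart, with correlations of log2 CPM of 0.929 to 0.949 with the other libraries, against 0.958 to 0.978 among the other 3. Fibroblast markers (14 genes) summed to 17900 and 17587 CPM (wild type) against 15598 and 17858 CPM (KPC). Markers of macrophages (18 genes) summed to 104 and 331 against 1316 and 2623 CPM, of epithelium (15 genes, 2 of them at 0 in wild type replicate 1) to 62.5 and 748 against 2053 and 1509 CPM, of endothelium (12 genes) to 1034 and 171 against 57.4 and 107 CPM, and of Schwann cells (8 genes, 1 at 0 in KPC replicate 1) to 28.8 and 5.72 against 2.53 and 3.05 CPM. Endocrine markers (10 genes) reached 963 CPM in wild type replicate 2 and at most 4.32 CPM elsewhere, with 4 of them at 0 in KPC replicate 1, and acinar markers (10 genes, 1 to 3 at 0 per library) stayed at 5.12 to 9.42 CPM. Much of the epithelial sum came from 1 gene, Spp1. It contributed 860 CPM in KPC replicate 1 and 1050 CPM in KPC replicate 2. Its levels in wild type replicates 1 and 2 were 29.7 and 310 CPM. Of the 14 tested epithelial genes, 5 were higher in KPC without overlap and 0 were lower. Krt18 was not among the 5, with 134 CPM in wild type replicate 2 and 121 CPM in KPC replicate 2. The part of these cell types in the values below was not tested. In bulk RNA, fewer cells of a type and less RNA per cell cannot be told apart. The edgeR quasi-likelihood test called 0 of 23046 rows after Benjamini-Hochberg adjustment (smallest adjusted p = 0.211), 1999 had an unadjusted p under 0.05, limma voom called 0 and DESeq2 called 627.

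Which row a ribosomal protein read was counted in was often undetermined, because most members share their sequence with other genes. Rows with a single count most often covered 37 bases (82.8% of 7038 such rows), so the coding sequence of each gene in GENCODE M21 was cut into words of 37 bases and looked up in all other transcripts. Over the 76 core genes a median of 95.4% of these words occurred in another gene, a core gene shared words with a median of 12.5 other genes and at most 151, and in 71 genes the share was 50% or more. The 5 core genes below that included Rpl8 (10.3%), Rps3 (14.3%), Rpl4 (30.8%) and Rpl22 (46.6%). To show what the rows could and could not separate, 90 coding bases are printed for a family whose copies are nearly identical and for one whose copy is not (positions 212 to 301 of Rps12 and 484 to 573 of Rps4x, from the GENCODE M21 transcripts on GRCm38), 5′ to 3′, with the bases that differ from the parent in capitals. Each window was chosen for the most mismatches in the most diverged copy, so it shows more difference than the whole sequence does. The windows hold 5 of the 7 mismatches of Rps12l2 and 27 of the 157 of Rps4y2.
Rps12: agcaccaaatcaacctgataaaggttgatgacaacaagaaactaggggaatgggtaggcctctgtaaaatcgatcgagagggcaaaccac
Rps12l1: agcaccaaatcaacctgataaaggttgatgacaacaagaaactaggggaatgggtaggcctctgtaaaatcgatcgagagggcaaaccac
Rps12l2: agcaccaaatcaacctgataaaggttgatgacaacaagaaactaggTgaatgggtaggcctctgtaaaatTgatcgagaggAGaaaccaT
Rps4x: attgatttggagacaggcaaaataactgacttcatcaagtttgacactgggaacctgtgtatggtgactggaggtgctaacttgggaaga
Rps4y2: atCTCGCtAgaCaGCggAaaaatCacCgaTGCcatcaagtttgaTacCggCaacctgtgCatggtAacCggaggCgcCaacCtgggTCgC

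The retrocopy rows divided by how closely they match their parents. Rps12l1 (chr7:56013933-56014428 in mm10, as deposited) had 0 mismatches to the 396 coding bases of Rps12 (chr10:23785211-23787195), and its count was 1.44, 1.45, 1.44 and 1.44 times that of Rps12 in the 4 libraries. Rps12l2 (chr8:36025753-36026133) differed at 7 of 381 bases, and its count was 0.757, 0.755, 0.747 and 0.738 times that of Rps12. Rps3a2 and Rps3a3, copies of Rps3a1, differed at 4 of 792 and 8 of 791 bases, and their ratios to Rps3a1 ran from 1.06 to 1.07 and from 0.773 to 0.785. For these 4 rows the ratio varied by at most 1.03-fold between libraries, so their fold changes repeat those of their parents and are not separate measurements. Rps4y2 (chr6:148354656-148355598), annotated in GENCODE as the transcribed processed pseudogene Rps4l, differed from Rps4x at 157 of 783 bases, and 0.221% of its words occurred in Rps4x. Its ratio to Rps4x was 0.0014, 0.0549, 0.0146 and 0.0466, a 38.6-fold range.

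Rps4y2 varied more between libraries than any other member above 1 CPM. It stood at 1.24 and 40.5 CPM (wild type) against 9.37 and 36.9 CPM (KPC), from counts of 65, 905, 551 and 2502. The groups overlapped, with replicate 1 low and replicate 2 high in each, and the log2 fold change was 0.15 ± 1.41 (SE, edgeR quasi-likelihood adjusted p = 0.990). Its parent Rps4x, an X-linked protein of the small subunit, stood at 870 and 738 CPM (wild type) against 640 and 791 CPM (KPC).

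**Figure D1:**
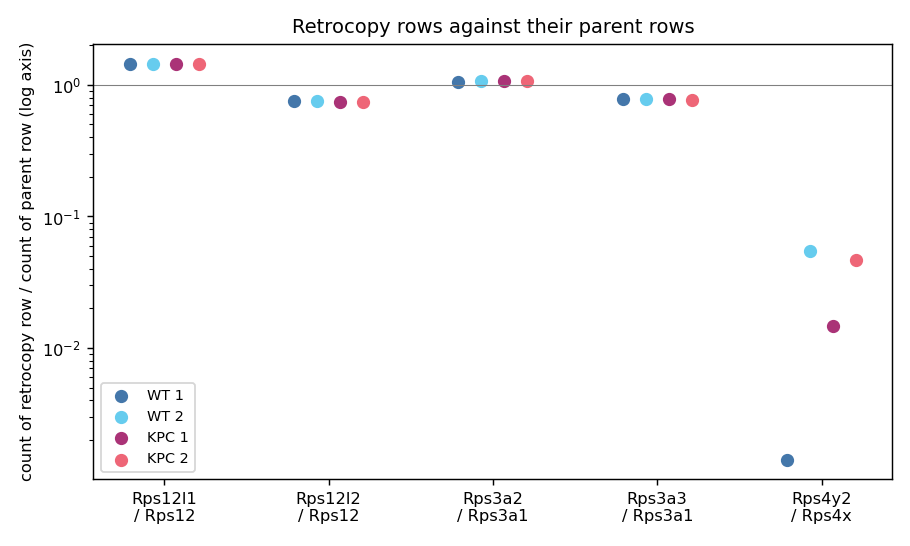
Count of each retrocopy row divided by the count of its parent row (vertical log axis) in the 4 libraries (points). The 4 rows copied from Rps12 and Rps3a1 keep 1 ratio in every library, while Rps4y2 runs from 0.0014 to 0.0549 of Rps4x.

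The row named Rpl24 (chr16:55973883-56008913) lies on Zbtb11 and held 6.77 and 5.59 CPM (wild type) against 7.33 and 5.59 CPM (KPC). The annotated place of Rpl24, a large subunit protein that contacts the small subunit, is chr16:55966275-55971435. It is listed under the symbol RPL24 in capitals, which the rule does not take. That row held 301 and 372 CPM (wild type) against 350.5 and 308 CPM (KPC), a range in which the groups overlapped (log2 fold change -0.03 ± 0.19 SE). Of the 2 rows, only the latter is at the level of the core genes, and values named Rpl24 in these tables are not values of that gene.

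As a group, the members were slightly lower in KPC when all libraries were used, but not without KPC replicate 1. No member passed the test. Of the 87 tested members, 62 had a log2 fold change below 0 and 25 above, with a median of -0.10, beside 51.2% of rows below 0, 48.8% above and a median of -0.01 over all 23046 rows. Of the 1197 rows whose mean level lay in the range of the core genes, 708 were below 0, with a median of -0.05. Under upper quartile scaling, which put the median of all rows at -0.08, the split of the members was 71 below and 16 above 0. KPC was lower in 23 members, without overlap between the groups (20.5% of all rows), and higher in 6 (20.6% of all rows). These counts include retrocopy rows that repeat their parents. Over the 76 core genes alone, 59 were below 0 and 17 above, and 20 were lower and 3 higher without overlap. After adjustment 0 members passed (0% of all rows, smallest adjusted p among members 0.556, edgeR quasi-likelihood test), and 1, Rps27l, had an unadjusted p under 0.05 in the lower direction, against 3.94% of all rows lower, 4.73% higher and 8.67% in either direction. DESeq2 and limma voom called 0 members each, with 2 at an unadjusted p under 0.05 in each, beside 2171 (DESeq2) and 2035 (limma voom) of all 23046 rows. The differences were small: 86 of 87 were within 0.5 on the log2 scale. Rpl10l was not tested, with counts of 1, 1, 0 and 1.

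In most members the lowest value was that of 1 library. KPC replicate 1 was the lowest of the 4 libraries in 60 of 76 core genes, beside 25.8% of all rows and 569 of the 1197 rows at the core genes' level. It was below KPC replicate 2 in 78 of 87 members, beside 50.2% of all rows and 808 of those 1197 rows. Relative to each gene's mean over the 4 libraries, the median log2 level of the small subunit core genes was 0.07 in both wild type libraries, -0.21 in KPC replicate 1 and 0.06 in KPC replicate 2. For the large subunit core genes it was 0.03 and 0.07 in wild type, -0.17 in KPC replicate 1 and 0.07 in KPC replicate 2. On this measure KPC replicate 2 lay with the wild type libraries and KPC replicate 1 below all 3. Without KPC replicate 1 the medians over all members were 0.0027 (small) and 0.0239 (large), and 39 of 87 members were below 0. Without KPC replicate 2 they were -0.318 and -0.202, with 71 of 87 below 0. Without wild type replicate 1 the medians were -0.15 and -0.10. KPC replicate 1 was not the shallowest library. Its fibroblast markers summed to the lowest value of the 4, 15598 CPM, but it was the lowest library in 4 of these 14 genes. Wild type replicate 1 was the lowest in 6 of them. The cause of the low values in KPC replicate 1 was not tested.

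**Figure D2:**
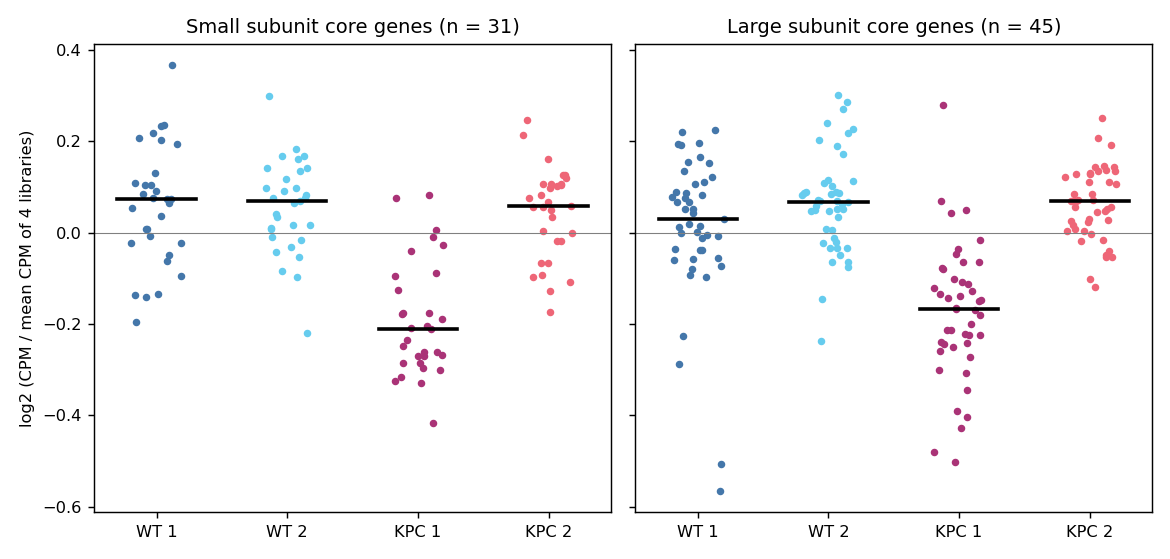
Level of each core gene in each library relative to that gene's mean over the 4 libraries (vertical axis, log2), for 31 small subunit genes (left) and 45 large subunit genes (right). Points are genes and black lines are medians, which lie at -0.21 and -0.17 in KPC replicate 1 and between 0.03 and 0.07 in the other 3 libraries.

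The small and the large subunit stood in nearly the same ratio in the 4 libraries. The 37 small subunit members had a median log2 fold change of -0.13 (9 above and 28 below 0), and the 50 tested large subunit members one of -0.08 (16 above and 34 below 0). Without overlap, 13 small subunit members were lower and 4 higher, and 10 large subunit members lower and 2 higher. Over all rows these shares were 20.5% lower and 20.6% higher. The small subunit counts include retrocopy rows that repeat their parents. Over core genes alone the medians were -0.13 and -0.10. Without overlap, 10 of the 31 small subunit core genes were lower and 2 higher, and 10 of the 45 large subunit core genes lower and 1 higher. Small subunit rows summed to 20872 and 20194.5 CPM (wild type) against 17548 and 20673 CPM (KPC), and large subunit rows to 23245 and 24030.5 CPM (wild type) against 20218.5 and 24075 CPM (KPC). The ratio of the 2 sums was 0.898 and 0.840 in wild type (mean 0.869 ± 0.0407, SD, n = 2) and 0.868 and 0.859 in KPC (mean 0.863 ± 0.0065, SD, n = 2), so both KPC ratios lay between the wild type ratios. Over core genes the ratio was 0.757, 0.727, 0.736 and 0.742. Members together held 4.36% and 4.43% of all counts in wild type and 3.84% and 4.44% in KPC, and with the rows named as ribosomal protein pseudogenes 10.4% and 10.3% against 8.88% and 10.3%. KPC replicate 1 was lowest in 171 of the 207 tested pseudogene rows (25.8% of all rows). Their median log2 fold change was -0.14, beside -0.01 over all rows. Because these rows share sequence with the members and can hold the same reads, they are not separate measurements.

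**Figure D3:**
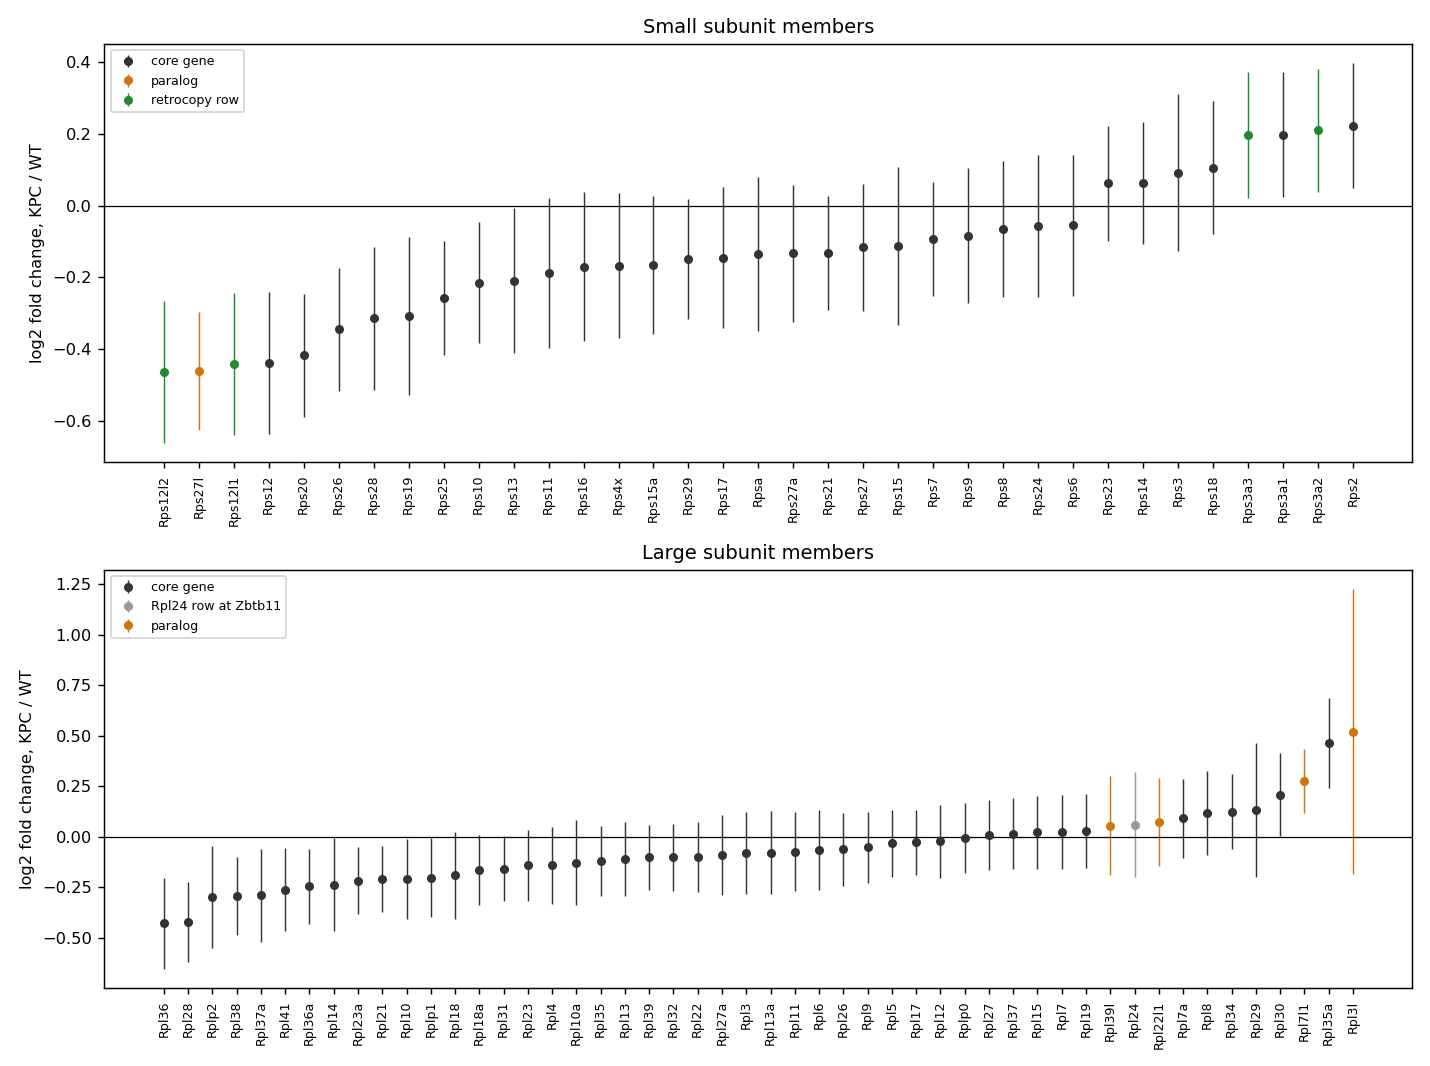
Log2 fold change of KPC over wild type (vertical axis) with its standard error (bars) for the tested members of the small subunit (top) and large subunit (bottom), in order of fold change. Rps4y2 (SE 1.41), the untested Rpl10l and 1 small subunit row not reported here are left out; the values run from -0.46 to 0.22 in the small subunit and from -0.43 to 0.52 in the large subunit, and 0 members passed the adjusted test.

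Of the 31 small subunit core genes, 10 were lower in KPC without overlap (20.5% of all rows), with Rps12, Rps20, Rps26, Rps28 and Rps19 the most. Rps12, a protein of the beak of the small subunit, stood at 842 and 660 CPM (wild type) against 530 and 579 CPM (KPC). Both KPC libraries were below both wild type libraries, with a log2 fold change of -0.44 ± 0.20 (SE, adjusted p = 0.614). Rps12 and its exact copies cannot be told apart, so this value belongs to the family. Rps20 (chr4:3831334-3835665), a protein of the head of the subunit, stood at 784 and 756 CPM (wild type) against 538 and 617 CPM (KPC). Its wild type libraries were close together and both KPC libraries lower (-0.42 ± 0.17, adjusted p = 0.591). Rps26 (chr10:128624530-128626506), which lines the channel where the mRNA leaves the subunit, stood at 377 and 339 CPM (wild type) against 267 and 297 CPM (KPC). The groups did not overlap (-0.34 ± 0.17, adjusted p = 0.631). Rps28, which lies near Rps26, was at 198 and 248 CPM (wild type) against 167 and 192 CPM (KPC), and Rps19, needed to mature the small subunit and mutated in Diamond-Blackfan anaemia, at 493 and 521 CPM (wild type) against 343 and 476 CPM (KPC). In both, the KPC libraries were lower, but KPC replicate 2 lay near the lower wild type library (-0.31 ± 0.20 and -0.31 ± 0.22, adjusted p = 0.699 and 0.731).

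Rps2 and Rps3a1 were the small subunit core genes higher in KPC without overlap. Rps2 (chr17:24718116-24721929), by the entry of the mRNA channel, stood at 1041 and 1069 CPM (wild type) against 1135 and 1326 CPM (KPC). KPC replicate 2 was the high library (0.22 ± 0.17, adjusted p = 0.761), and with the counts of the rows named Rps2-ps added the value was -0.03. Rps3a1 (chr3:86137940-86142702), on the platform of the subunit, stood at 779 and 665 CPM (wild type) against 821 and 835 CPM (KPC). The KPC libraries were alike and the wild type libraries apart (0.20 ± 0.17, adjusted p = 0.790).

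Other small subunit genes with known roles had differences under or close to their standard errors. Rpsa, the most abundant core row, also known as a laminin receptor, stood at 1936 and 2134 CPM (wild type) against 1584 and 2123 CPM (KPC) (-0.13 ± 0.21). Rps6, the substrate of S6 kinase, stood at 867 and 747 CPM (wild type) against 700.1 and 852 CPM (KPC) (-0.06 ± 0.20). In both, KPC replicate 1 alone was below the other 3 libraries. Rps27a, which is made as a fusion with ubiquitin, stood at 589 and 635 CPM (wild type) against 497 and 619 CPM (KPC) (-0.13 ± 0.19). Rps3, by the mRNA entry, stood at 712 and 807 CPM (wild type) against 688 and 931 CPM (KPC) (0.09 ± 0.22), and Rps14, a protein of the platform, at 423 and 487 CPM (wild type) against 467 and 484 CPM (KPC) (0.06 ± 0.17). In these 3 the groups overlapped.

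Among large subunit core genes, Rpl36, Rpl28 and Rpl38 were the lowest in KPC without overlap and Rpl35a was the only one higher. Rpl36 (chr17:56613395-56614243) stood at 312 and 314 CPM (wild type) against 192 and 272 CPM (KPC). The wild type libraries were nearly equal and KPC replicate 1 was far the lowest (-0.43 ± 0.23, adjusted p = 0.644). Rpl28 (chr7:4792874-4794562) stood at 345 and 333 CPM (wild type) against 220 and 285 CPM (KPC), again with KPC replicate 1 lowest and no overlap (-0.42 ± 0.20, adjusted p = 0.622). Rpl38, which in mouse embryos is needed to translate a subset of Hox mRNAs, stood at 188 and 218 CPM (wild type) against 149 and 182 CPM (KPC). KPC replicate 2 was just below wild type replicate 1 (-0.29 ± 0.19, adjusted p = 0.712).

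Rpl35a (chr16:33056453-33060189), which is mutated in some patients with Diamond-Blackfan anaemia, went the other way. It stood at 229 and 317 CPM (wild type) against 394 and 359 CPM (KPC). Both KPC libraries were above both wild type libraries, and KPC replicate 1 was the highest, as in only 1 other core gene, Rps23. The log2 fold change was 0.46 ± 0.22 (SE, adjusted p = 0.628), and 87.4% of its coding words occur in 28 other genes. Rpl29, which shares words with 108 genes, had the largest standard error of the core genes and wild type values far apart, at 180 and 329 CPM, with KPC at 253 and 305 CPM inside it (0.13 ± 0.33).

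The lateral stalk, where Rplp0 anchors Rplp1 and Rplp2 and elongation factors bind, showed values both at and below wild type. Rplp0 stood at 1557 and 1401 CPM (wild type) against 1398 and 1548 CPM (KPC). The groups covered the same range (-0.01 ± 0.17). Rplp1 stood at 1318 and 1572 CPM (wild type) against 1144 and 1367 CPM (KPC), and Rplp2 at 519 and 586 CPM (wild type) against 358 and 538 CPM (KPC). In Rplp1 and Rplp2 KPC replicate 1 was the lowest and KPC replicate 2 within the wild type range (-0.20 ± 0.20 and -0.30 ± 0.25).

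The genes of large subunit proteins that link the ribosome to the p53 pathway differed by less than their errors. Rpl5 and Rpl11, which bind Mdm2 and inhibit it when ribosome assembly is disturbed, stood at 537 and 596 CPM (wild type) against 536 and 572 CPM (KPC), and at 424 and 444 CPM (wild type) against 362 and 462 CPM (KPC). The groups overlapped in both genes, with log2 fold changes of -0.03 ± 0.17 and -0.07 ± 0.19. Rpl23 and Rpl26, which also take part in p53 control, had log2 fold changes of -0.14 ± 0.18 and -0.06 ± 0.18, also with overlap. Rpl10, a late addition to the subunit, stood at 558 and 467 CPM (wild type) against 399 and 487 CPM (KPC) (-0.21 ± 0.20), and Rpl13a, which can leave the ribosome to silence mRNAs, at 997 and 1067 CPM (wild type) against 844 and 1110 CPM (KPC) (-0.08 ± 0.21). In both, KPC replicate 1 was low and KPC replicate 2 was not.

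**Figure D4:**
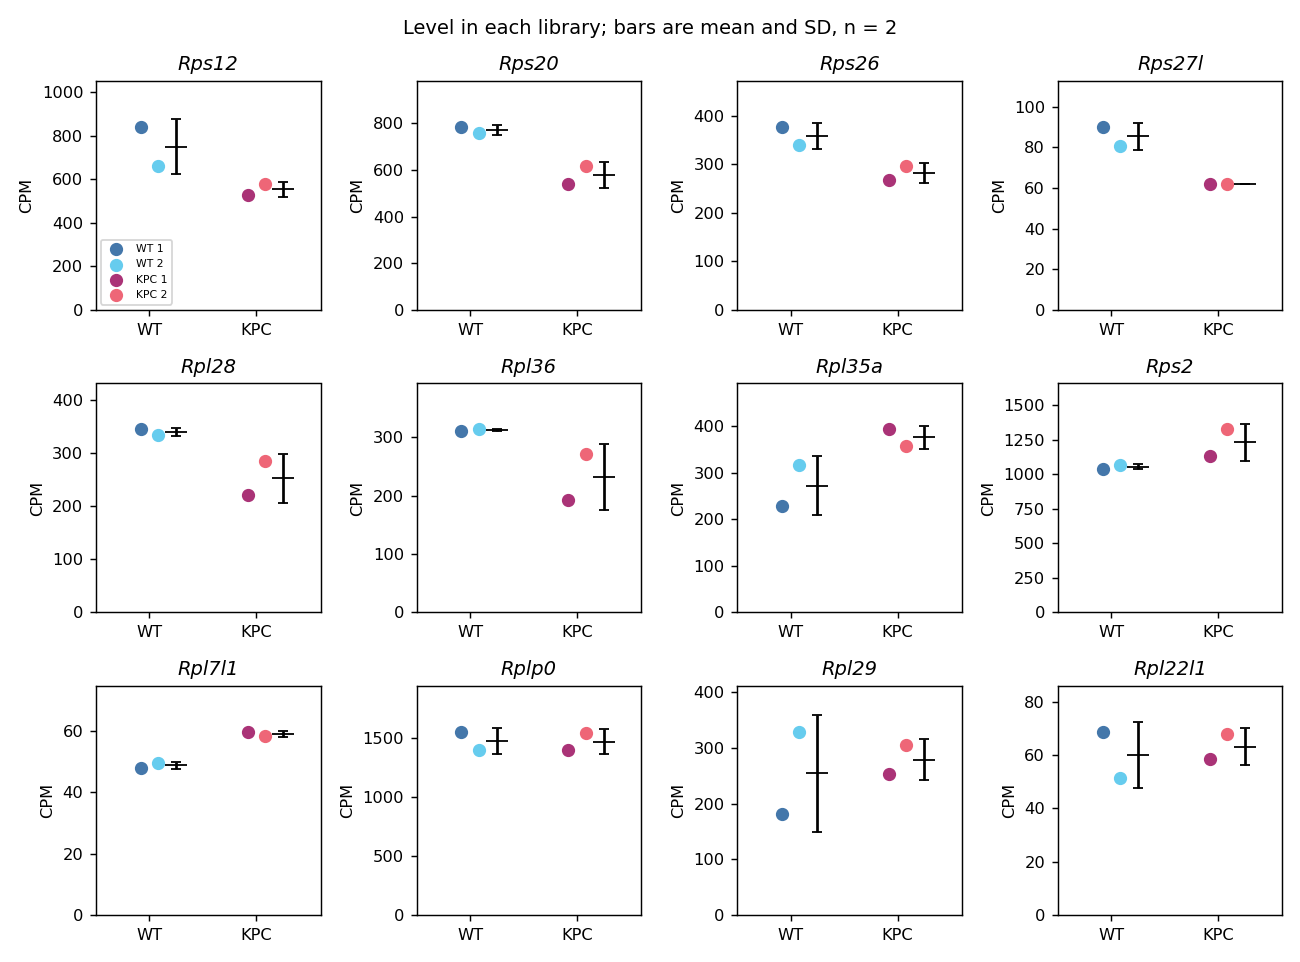
Level (vertical axis, CPM, starting at 0) in each library for 12 members, with the mean and SD of each group (n = 2). Rps12, Rps20, Rps26, Rps27l, Rpl28 and Rpl36 lie lower in both KPC libraries, Rps2, Rpl35a and Rpl7l1 higher, and Rplp0, Rpl29 and Rpl22l1 overlap; 0 of the 12 passed the adjusted test.

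Paralogs of core genes, several of which are known from restricted tissues, had lower levels than any core gene, and at most 88.5% of their words occurred in other genes, beside the core median of 95.4%. Rps27l (chr9:66946086-66949516), a p53 target gene and paralog of Rps27, stood at 90.1 and 80.6 CPM (wild type) against 62.0 and 62.1 CPM (KPC). The KPC libraries were nearly equal and both below wild type, and the gene had the smallest p of all members. The edgeR quasi-likelihood test gave a log2 fold change of -0.46 ± 0.17 (SE), an unadjusted p of 0.0407 and an adjusted p of 0.556. Its value ranged from -0.54 to -0.38 over 14 alternative analyses and was -0.45 without KPC replicate 1. Rpl7l1 (chr17:46773907-46782656), a paralog of Rpl7 found in precursors of the large subunit, stood at 48.1 and 49.7 CPM (wild type) against 59.8 and 58.4 CPM (KPC). Within each group its libraries differed by less than 2 CPM, and KPC was higher without overlap (0.27 ± 0.16, adjusted p = 0.668, range over alternatives 0.21 to 0.30).

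The remaining paralogs showed no such separation. Rpl22l1 stood at 68.7 and 51.3 CPM (wild type) against 58.3 and 68.0 CPM (KPC), and its paralog Rpl22, an RNA-binding protein needed in T cell development, at 245 and 232 CPM (wild type) against 205 and 239 CPM (KPC). The values overlapped in both (0.07 ± 0.22 and -0.10 ± 0.17). Rpl39l, best known from testis, held 4.72 and 5.46 CPM (wild type) against 5.52 and 5.01 CPM (KPC), with 167 of the 4685 bases of its row covered in wild type replicate 1. Rpl3l, the form of heart and skeletal muscle, had counts of 13 and 1 in wild type and 13 and 18 in KPC (0.247, 0.0447, 0.221 and 0.265 CPM), and its log2 fold change of 0.52 ± 0.71 was -0.02 without wild type replicate 2. Rpl10l, the testis copy of the X-linked Rpl10, is at or under the level of 3 counts in every library.

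Levels per length differed widely among core genes. Mean CPM over the 4 libraries divided by the length of a GENCODE transcript in kilobases ran from 182 to 2972 over the 76 core genes, a 16.3-fold range, with a median of 559. The highest were Rpl41, which encodes the smallest ribosomal protein, at 2972 CPM per kilobase, Rplp1 at 2706 and, among all members, Rps12l1 at 2358, then Rps15 at 1362 and Rps12 at 1322. Among rows whose name matches the gene at their place, the lowest members were Rpl10l (0.0192), Rpl3l (0.142), Rpl39l (9.41), Rpl7l1 (41.2) and Rpl22l1 (112). Outside that ranking, the retrocopy row Rps4y2 stood at 23.3 and the row named Rpl24 at 1.28. Rpl41 stood at 1250 and 1583 CPM (wild type) against 1099 and 1263 CPM (KPC), overlapping by 1 library (log2 fold change -0.26 ± 0.20), and Rps15, on the head of the small subunit, at 718 and 697 CPM (wild type) against 547 and 762 CPM (KPC) (-0.11 ± 0.22). Shared reads and the choice of transcript enter these levels: Rps20, the lowest core gene at 182 CPM per kilobase, was divided by a transcript of 3706 bases.

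A pyrimidine tract near the start site was present in most core genes with a promoter sequence. In RefSeq promoter sequences (GRCm38.p6), 56 of the 76 core genes were matched by symbol. A tract, taken as C followed by 7 or more C or T on the strand of the gene within 50 bases of the start, was present in 48 of them (85.7%), beside 32.0% of 27025 genes. The window reaches to both sides of the start, so a tract in it need not begin the mRNA or lie in it. The first 3 genes below hold it and the fourth does not, from 60 bases before to 20 after the start, 5′ to 3′ on the strand of the gene, with the tract in capitals: Rps12 at chr10:23787190-23787269 (minus strand) and Rpl28 at chr7:4792905-4792984 (plus strand), both lower in KPC, then Rpl35a at chr16:33056422-33056501 (plus strand) and Rps2 at chr17:24720003-24720082 (plus strand), both higher. Between the same distances from the start, Rps26, Rps19 and Rpl38 (lower) also hold a tract, and Rps28 (lower) and Rps3a1 (higher) do not.
Rps12: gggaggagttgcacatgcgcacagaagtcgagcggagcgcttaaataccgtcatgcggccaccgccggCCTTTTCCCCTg
Rpl28: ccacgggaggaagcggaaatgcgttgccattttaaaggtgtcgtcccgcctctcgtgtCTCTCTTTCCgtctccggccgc
Rpl35a: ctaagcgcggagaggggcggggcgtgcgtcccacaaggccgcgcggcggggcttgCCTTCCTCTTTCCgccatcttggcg
Rps2: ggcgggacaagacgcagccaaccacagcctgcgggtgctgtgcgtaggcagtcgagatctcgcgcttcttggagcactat

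Core genes with a tract had a median log2 fold change of -0.11 and those without one -0.14. In the full windows of 250 bases before to 50 after the start, on both strands and with matches of different motifs free to overlap, the ETS core CCGGAAG was present in 42.9% of the matched core genes and 9.93% of all genes, the GC box GGGCGG in 62.5% and 38.2%, and the YY1 core GCCATCTT in 8.93% and 3.19%. The E-box CACGTG was present in 10.7% and 8.09%, and TATAAA in 10.7% and 15.7%. These are matches of letters and not measured binding.

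The factors that assemble ribosomes had mostly values above 0. Of 50 ribosome biogenesis genes, all tested, 40 had a log2 fold change above 0 and 10 below, with a median of 0.18, and 21 were higher and 4 lower in KPC without overlap (20.6% and 20.5% of all rows). KPC replicate 1 was the lowest library in 5 of the 50 (25.8% of all rows). Wild type replicate 1 was the lowest in 30 of the 50 (6662 of all 23046 rows). Rrp1b, a nucleolar rRNA processing factor, stood at 5.35 and 5.19 CPM (wild type) against 8.19 and 9.58 CPM (KPC), and Gar1, of the pseudouridylation complex, at 15.9 and 18.1 CPM (wild type) against 25.8 and 23.1 CPM (KPC). The groups were well apart in both, with log2 fold changes of 0.75 ± 0.22 and 0.52 ± 0.18, but neither passed the adjusted test (adjusted p = 0.518 and 0.545). Nip7 and Rrs1, factors of large subunit assembly, had log2 fold changes of 0.43 ± 0.17 and 0.42 ± 0.17. The median of the list lay between 0.11 and 0.25 over the 13 alternatives, the lowest being without wild type replicate 1. Under upper quartile scaling 34 of the 50 were above 0.

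The other lists of the translation machinery had medians on both sides of 0. The 35 initiation factors had a median of 0.07 (24 above and 11 below 0, 11 higher and 6 lower without overlap, beside 20.6% and 20.5% of all rows, as for the lists that follow), led by Eif3f at 228 and 183 CPM (wild type) against 133 and 177 CPM (KPC), Eif4g3 (-0.32 ± 0.19), Eif2b4 (0.32 ± 0.20) and the cap-binding protein Eif4e (0.33 ± 0.21). The list of elongation factors (10 genes, not all of them elongation factors themselves) had a median of -0.14 (3 above and 7 below 0, 0 higher and 2 lower without overlap). In it Eif5a was at 0.23 ± 0.21 and Eef1g and Eef1b2, of the complex that reloads Eef1a1, both at -0.19 with SEs of 0.17 and 0.18. The 76 mitochondrial ribosomal proteins had a median of 0.03 (45 above and 31 below 0, 13 higher and 10 lower without overlap). Under upper quartile scaling 18 of the 35 initiation factors and 34 of the 76 mitochondrial proteins were above 0. In the mitochondrial list Mrps6 was the farthest from 0, at 102 and 56.0 CPM (wild type) against 39.1 and 38.4 CPM (KPC) (-1.03 ± 0.32, adjusted p = 0.537). Of the ribosomal proteins that the symbol rule does not take, Fau, which is made as a fusion with a ubiquitin-like protein, stood at 418 and 502 CPM (wild type) against 405 and 430 CPM (KPC), Gnb2l1 (Rack1) at 789 and 736 against 641 and 762 CPM, and Rpl36al at 162 and 245 against 198 and 226 CPM. KPC replicate 1 was the lowest library in Fau and Gnb2l1.

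Regulators of ribosome synthesis and of its p53 checkpoint (21 genes) had a median of -0.07, with 9 above and 12 below 0 and 5 higher and 9 lower without overlap (20.6% and 20.5% of all rows). The genes named here are the 4 of smallest p in the list. Mdm2, the ubiquitin ligase that Rpl5 and Rpl11 bind, stood at 57.1 and 49.9 CPM (wild type) against 33.1 and 34.3 CPM (KPC). Cdkn1a, a p53 target that arrests the cell cycle, stood at 191 and 267 CPM (wild type) against 149 and 139 CPM (KPC). These genes and Trp53 (-0.68 ± 0.23) had both KPC values under both wild type values, with log2 fold changes of -0.67 ± 0.17 for Mdm2 and -0.67 ± 0.23 for Cdkn1a and adjusted p of 0.459 to 0.541. Myc, a transcription factor that drives ribosome biogenesis genes, stood at 19.8 and 19.9 CPM (wild type) against 27.9 and 25 CPM (KPC) (0.41 ± 0.17, adjusted p = 0.591).

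**Figure D5:**
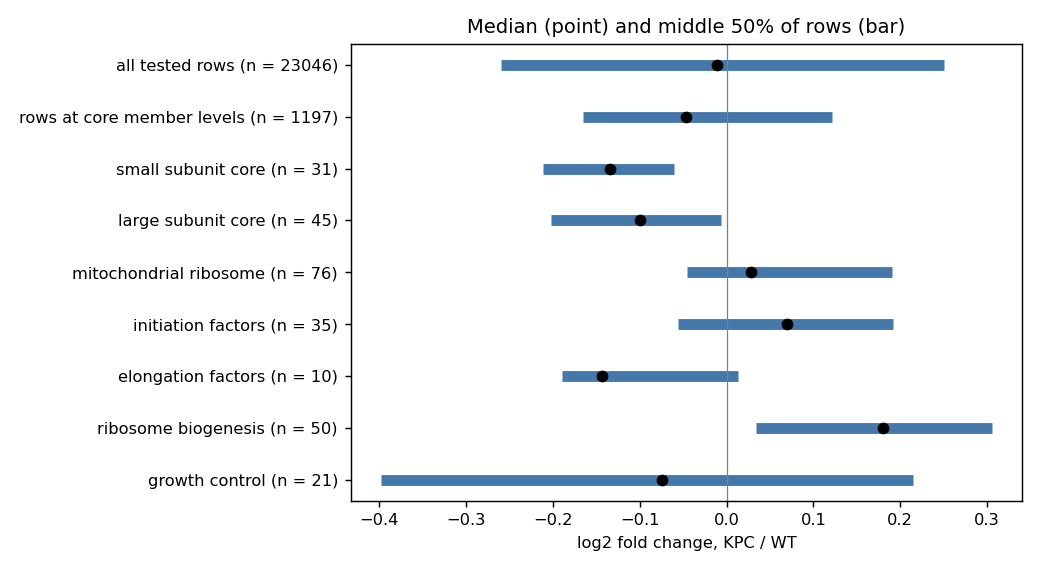
Median log2 fold change of KPC over wild type (horizontal axis, points) and the middle 50% of genes (bars) for each list and for all tested rows. The core genes of both subunits have medians of -0.13 and -0.10, all rows -0.01 and ribosome biogenesis genes 0.18; the bars show spread over genes, not error.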

How the data were processed

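Poly-A RNA of cultured mouse pancreatic fibroblasts was sequenced as single 50 bp reads after 13 PCR cycles with a kit that does not mark strand (labels' protocols). The tools FastQC 0.10.1, TopHat2 2.0.3, bedtools and SAMtools 0.1.18 and the build mm10 come from the submitters' processing notes. How reads with several matches were treated is not given in the sources used here. For each library the authors deposited 1 table without header holding, per gene interval (whose positions include introns) a read count, the bases covered and the fraction covered. The unit of the deposited count was read from its whole values and differing totals, and the deposited fraction was used only to describe coverage. Positions are printed as deposited.

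The counts of all rows were fitted with edgeR 4.0.16 under R 4.3.3. Rows passed filterByExpr at a minimum count of 10, TMM factors ran from 0.988 to 1.02, and KPC was compared with wild type by the quasi-likelihood test (two-sided), with Benjamini-Hochberg adjustment over 23046 rows at 0.05. The common dispersion was 0.103, with 2 residual and 2.76 prior degrees of freedom. Standard errors were derived as |log2 fold change|/√F from unshrunk values. With 2 against 2 libraries, an exact permutation test has 6 arrangements and cannot reach 0.05. No library repeated another: chi-square values per degree of freedom within a group were 115 (wild type) and 62.6 (KPC). A symbol on several rows (353 rows) used the row with the most counts. Lists are described by counts and medians without a test.

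The members and lists were chosen with earlier results of these data known. Members named are all paralogs, the core genes (at least 5 CPM) farthest from 0 without overlap, up to 8 in each direction, those with an unadjusted p under 0.05, the 5 highest and lowest per length, genes with known roles, and up to 4 genes of smallest p per other list. Rpl8, Rpl4, Rpl29, Rps4x, Rps23 and Rpl24 were added after their values were seen. The ranking per length leaves out rows whose name goes against their position. A few genes of the rule and lists are left out of the text. Each statistical script was first tested on simulated data. Alternatives were 2 other filters, scaling by RLE, by upper quartile or by totals, scaling without ribosomal protein rows, added pseudogene rows, DESeq2 1.42.0, limma voom (limma 3.58.1), each library left out (the lone library being assumed to vary like the other group) and a replicate block. Figures were drawn with matplotlib 3.10.9.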

Additional observations from a re-analysis of the deposited data

How the results depend on the processing

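The number of genes called over all rows was 0 in the edgeR quasi-likelihood test and stayed 0 under other scalings, filters, limma voom and the replicate block. It was 627 with DESeq2 and ran from 0 to 835 when a library was left out (5 without wild type replicate 1, 835 without wild type replicate 2). No member was called under any of these. Leaving out each library gave medians of -0.318 to 0.0027 for small subunit members and -0.202 to 0.0239 for large subunit members, the upper ends without KPC replicate 1, and log2 ratios of small to large subunit of -0.0568 to 0.0388 around -0.00896. Under upper quartile factors the median of all rows was -0.0783 and the members' medians were -0.199 and -0.142, with 71 of 87 below 0. Among the members with under 50% of their words in other genes, chosen after seeing the data, the medians were 0.0915 (small) and 0.0591 (large). These sets include the retrocopy row Rps4y2, paralogs and the row named Rpl24, whose own value is the large median. Over the 5 core genes with under 50% the median was -0.10, with 3 below 0. Over the other 71 core genes the median was -0.12, with 56 below 0. With pseudogene rows added, the log2 ratio of small to large subunit was -0.0842, and the difference in the share of counts was -0.780 in place of -0.256 percentage points. In the other lists, added after seeing the data, upper quartile factors gave 0.00265 for initiation factors and -0.0373 for mitochondrial ribosomal proteins. Leaving out each library gave -0.113 to 0.238 for mitochondrial ribosomal proteins, 0.0489 to 0.130 for initiation factors and -0.254 to 0.0596 for elongation factors. The cause of these shifts was not tested. The labels do not say that equal replicate numbers pair libraries. The replicate block gave medians of -0.147 and -0.0886 and 0 calls. Over rows, the deviations of wild type replicate 1 and KPC replicate 1 from their group means had a correlation of 0.136. With 2 libraries a group, the deviations of replicate 2 mirror these and add no second value.

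With 2 libraries a group, standard errors of 0.16 to 0.33 for core genes exceed most of their differences, so differences of this size were not detectable here, and the absence of calls does not show equal levels. Depth is not the limit for core genes, which lay at 149 CPM or more in every library, but it is for Rpl3l and Rpl10l. Intervals of genes sharing sequence hold reads of several genes.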
